A study of Homo sapiens with 6 samples.

Results

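The collagen genes are the 44 rows, of 61806 genes in the table, whose symbol reads COL, a number, A and a number. They were measured by RNA-seq in 6 libraries of the triple-negative breast cancer line MDA-MB-231 from 3 lentiviral short hairpin RNA lines selected with puromycin: the control line shNC and the HMGA2 knockdown lines shHMGA2-1 and shHMGA2-2, with 2 libraries each. The study expanded a single clone for each knockdown line and does not state this for shNC, so hairpin and clone cannot be told apart, and nothing in the labels says that the 2 libraries of a line came from separate cultures, so p-values measure only the spread between these libraries. Groups follow the sample titles. The library names differ from them: those of shNC read WT, those of shHMGA2-1 carry SH2-C9, which reads as hairpin 2, and those of shHMGA2-2 name no hairpin, so which hairpin each knockdown line carries rests on the titles alone.

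Collagens are secreted or membrane proteins in which 3 chains wind into a triple helix. The fibrillar collagens build the fibres of connective tissue, the type IV chains build the sheet of the basement membrane, and type VI forms beaded microfilaments near cells. The FACIT collagens decorate fibrils, and the transmembrane collagens anchor cells to their matrix. Chains of one type are assembled inside the cell, so a type VI molecule, for instance, needs the products of COL6A1, COL6A2 and 1 further gene. In breast tumours most fibrillar collagen comes from stromal fibroblasts, which a cell line culture lacks.

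Each library held 16461178 to 17167293 counts, and each count is a read assigned to a gene. HMGA2, the targeted chromatin protein, had 2126 and 2161 counts (shNC), 858 and 989 (shHMGA2-1) and 435 and 482 (shHMGA2-2), so it was lower in both knockdown lines. VIM, a mesenchymal marker high in this line, had 35046 to 37976 counts, whereas the hormone receptor genes ESR1 and PGR had at most 12 and 2 counts and the epithelial cadherin CDH1 at most 4. Of 8 fibroblast markers, PDGFRA, DCN, LUM and POSTN had no count in any library. The list summed to 55 to 58 counts in shNC, 56 to 86 in shHMGA2-1 and 111 to 118 in shHMGA2-2, which came mainly from ACTA2 and PDGFRB. PDGFRB had 21 and 33 counts (shNC), 10 and 9 (shHMGA2-1) and 53 and 70 (shHMGA2-2). Its edgeR log2 fold change against shNC was -1.57 in shHMGA2-1 and 1.10 in shHMGA2-2. That of ACTA2 was 1.03 and 0.80 in the same order. The part of these transcripts in the collagen values was not tested. In bulk libraries a change in every cell and a change in the share of cells that express a gene cannot be told apart. The 6 leukocyte markers summed to 5 to 18 counts and 4 endothelial markers to 47 to 73 counts over the 6 libraries.

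Of the 44 collagens, 22 had enough counts to be tested, and the other 22 were too low. COL6A3 and COL24A1 had enough only through shHMGA2-2, and COL4A6 only through shHMGA2-1. The calls of these genes are tied to that filter, and the DEG counts below include them. The tested set held 6 of 11 fibrillar, 5 of 6 basement membrane, 3 of 5 type VI, 3 of 10 FACIT and 2 of 4 transmembrane genes. It also held 1 of 2 multiplexins (COL18A1), 1 of 3 short-chain network collagens (COL8A1) and COL7A1, the anchoring fibril collagen. A gene was called differentially expressed (a DEG) when its level changed at least 2-fold and the quasi-likelihood test of edgeR gave it an adjusted p under 0.05.

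Collagens took 0.0924% and 0.0934% of all counts (shNC), 0.113% and 0.106% (shHMGA2-1) and 0.118% and 0.121% (shHMGA2-2). On the deposited FPKM scale, which divides counts by gene length and library size, their sum was 70.87 and 71.15 (shNC), 88.46 and 81.25 (shHMGA2-1) and 98.9 and 103.47 (shHMGA2-2). As TMM-normalised CPM, which are not divided by gene length, the sum was 965 and 976.2 (shNC) and 1116.9 and 1065.4 (shHMGA2-1). In shHMGA2-2 it was 1145.6 and 1153.5. The rise over shNC was thus smaller in CPM than in FPKM for both knockdown lines. The 3 lines did not overlap on either sum, and no test was run on them. In shNC the FPKM sum was led by COL12A1 (14.04 and 14.54 FPKM), a FACIT collagen of fibril surfaces. Next came COL13A1 (13.43 and 12.55 FPKM), a transmembrane collagen of adhesion sites, and COL8A1 (9.87 and 10.28 FPKM), a network-forming collagen of vessel and corneal matrices. COL4A2 and COL18A1 followed, and these 5 genes made up 74.7% of the mean sum. The leading 5 made up 67.8% in shHMGA2-1 and 63.3% in shHMGA2-2, where COL18A1, COL4A2, COL6A1 and COL5A1 stood before COL12A1.

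The make-up by class differed between the lines. The type VI share of the summed FPKM was 3.71% in shNC, 7.59% in shHMGA2-1 and 16.8% in shHMGA2-2. Fibrillar collagens took 8.35%, 12.5% and 16.4% in the same order, and COL18A1 with the other multiplexin 9.92%, 18.1% and 18.0%. In the other direction, the transmembrane share was 19.1%, 9.25% and 6.77%, and the short-chain share was 14.2%, 5.06% and 4.73%. FACIT collagens stood at 22.7% and 20.5% in shNC and shHMGA2-1 and at 10.6% in shHMGA2-2. Each class sum has the spread of 2 libraries only, and no test was run on the shares.

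**Figure D1:**
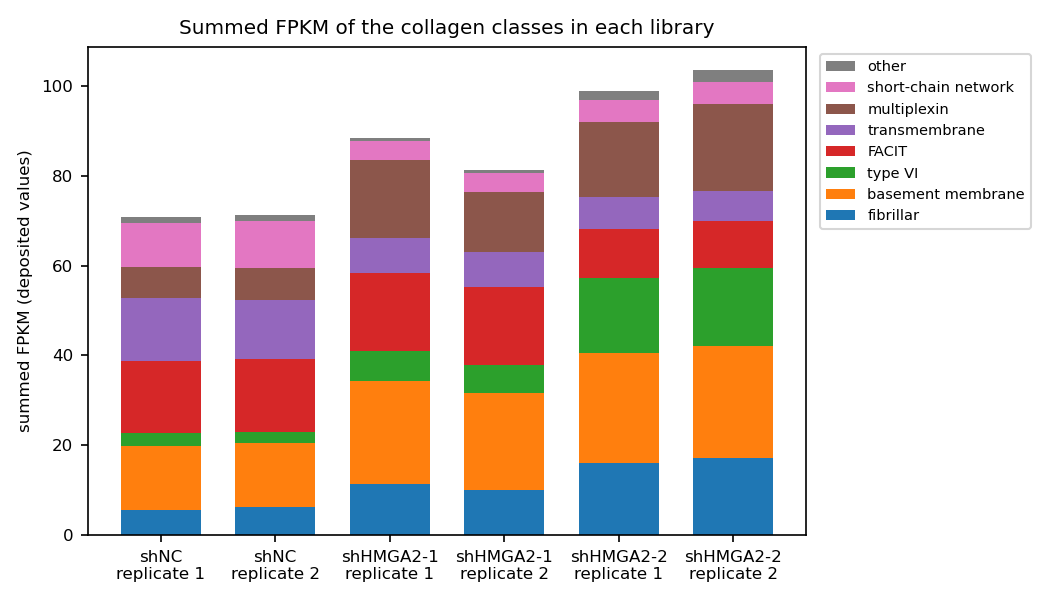
Summed FPKM of the collagen genes in each of the 6 libraries (y axis, deposited values), stacked by collagen class. The total runs from 70.87 in shNC replicate 1 to 103.47 in shHMGA2-2 replicate 2, and the type VI segment is 2.32 to 2.95 in shNC and 16.52 to 17.52 in shHMGA2-2.

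In shHMGA2-1 against shNC, 9 of the 22 tested collagens were DEGs, against 8.49% of all 16110 genes tested. COL4A6, COL6A2, COL4A5, COL1A1, COL11A2 and COL18A1 were higher and COL8A1, COL17A1 and COL7A1 were lower. COL4A6 entered the test only through this line. Over all genes, 4.89% were DEGs in the higher and 3.59% in the lower direction. The median log2 fold change of the tested collagens was 0.46, and that of all tested genes was 0.01. With upper quartile scaling the 9 collagen DEGs split as 7 higher and 2 lower in place of 6 and 3, because COL5A1 passed the 2-fold limit and COL7A1 no longer did.

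In shHMGA2-2 against shNC, 12 tested collagens were DEGs (54.5%), against 21.3% of all genes tested. The 8 higher ones were COL6A3, COL24A1, COL11A2, COL6A2, COL6A1, COL17A1, COL5A1 and COL18A1, against 11.7% of all genes. COL6A3 and COL24A1 entered the test only through this line. The 4 lower ones were COL4A4, COL13A1, COL9A2 and COL8A1, against 9.65% of all genes. The median log2 fold change was 0.68 for the tested collagens and 0.03 for all genes. The 2 comparisons share the shNC libraries. COL6A2, COL11A2 and COL18A1 were higher and COL8A1 was lower in both, and COL17A1 was a DEG in opposite directions.

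Compared directly, shHMGA2-2 and shHMGA2-1 differed at 11 of the 22 tested collagens, against 15.1% of all genes. The 6 higher in shHMGA2-2 were COL6A3, COL24A1, COL11A2, COL17A1, COL7A1 and COL6A1, against 7.83% of all genes. The 5 lower were COL4A6, COL4A4, COL4A5, COL9A2 and COL1A1, against 7.27%. COL6A3, COL24A1 and COL4A6 entered the test only through the line where they were higher. With the 4 knockdown libraries as 1 group, 4 collagens were DEGs against shNC, where 3.09% of all genes were DEGs. COL6A2, COL5A1 and COL18A1 were higher (1.72% of all genes) and COL8A1 was lower (1.37% of all genes). Leaving out either shNC library left no DEG among the collagens in this grouped comparison (10 collagens had an unadjusted p under 0.05 with all libraries), and DESeq2 called 10 with all libraries.

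**Figure D2:**
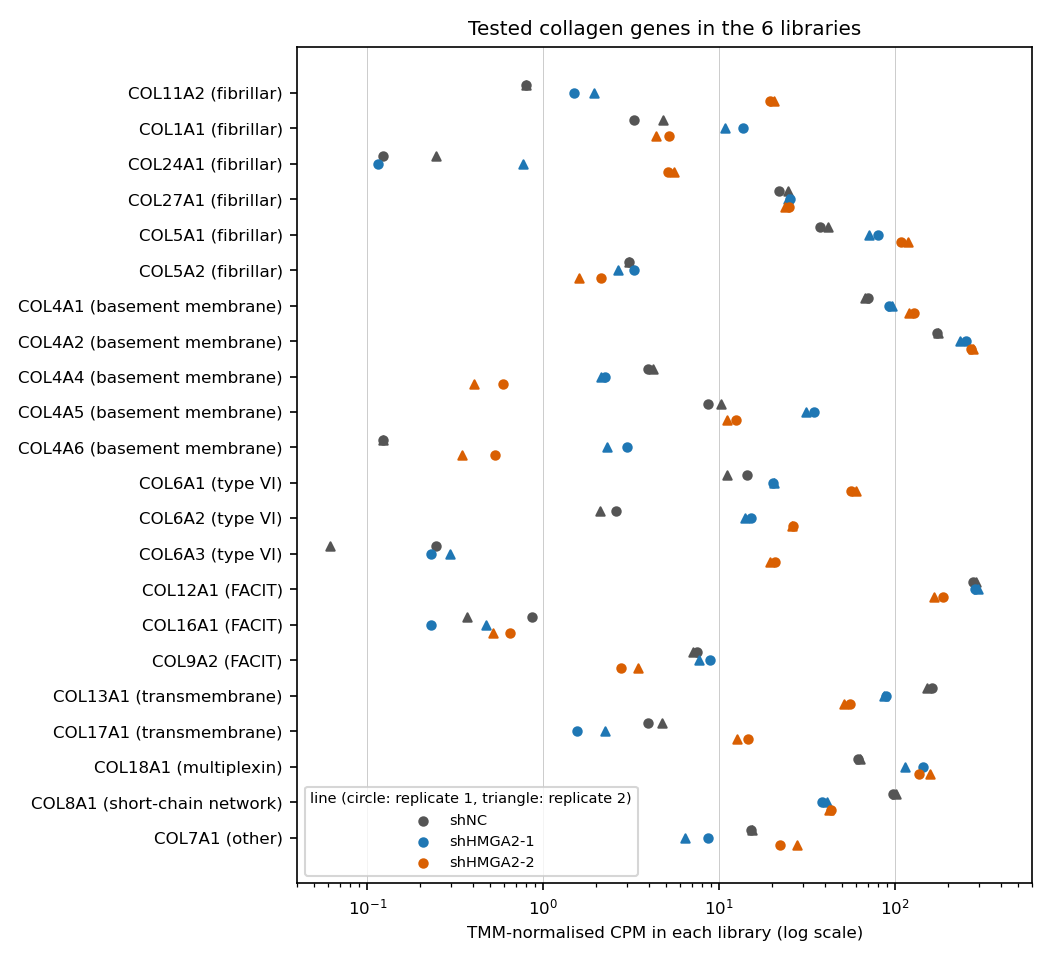
Expression of the 22 tested collagens in each library, as TMM-normalised CPM on a log x axis, with 1 row per gene and its class in brackets. Circles are replicate 1 and triangles are replicate 2 of shNC (grey), shHMGA2-1 (blue) and shHMGA2-2 (orange). COL6A3 and COL11A2 stand far to the right in shHMGA2-2, COL4A6 does so in shHMGA2-1, and COL27A1 lies in 1 cluster.

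**Figure D3:**
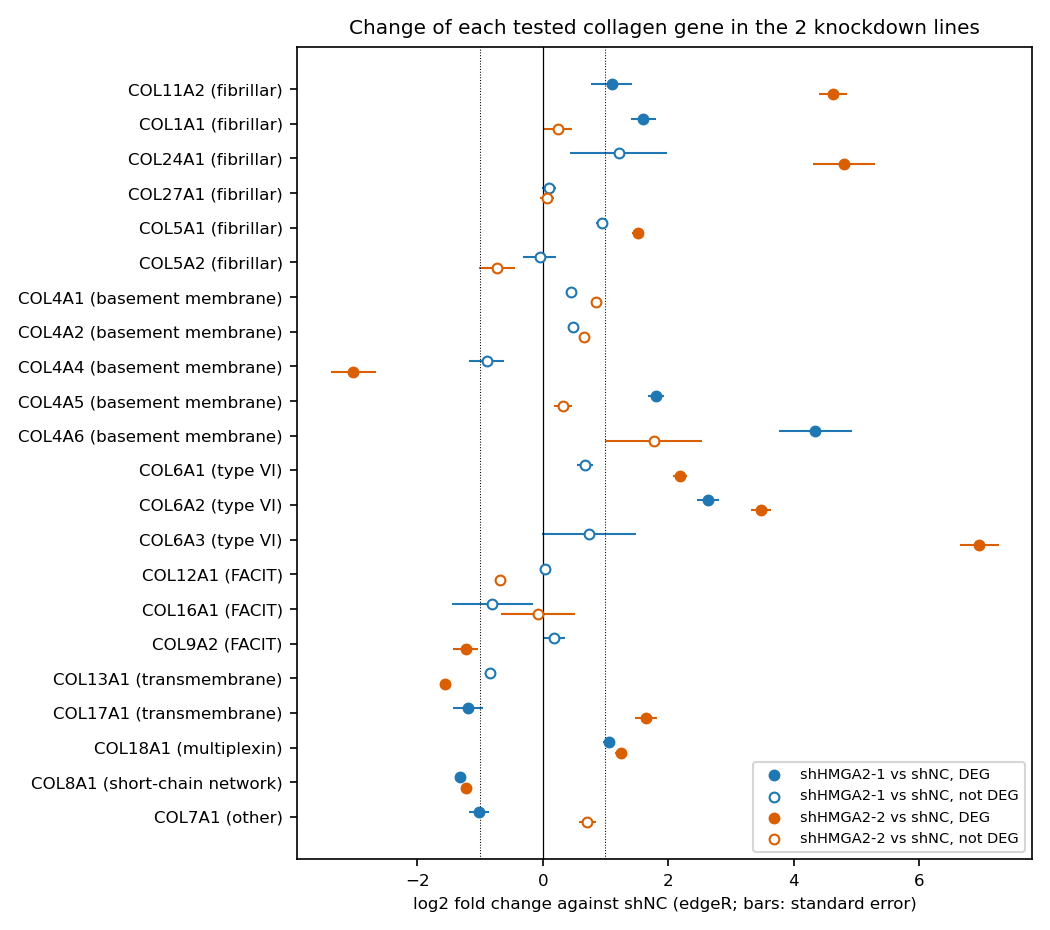
Log2 fold change of each tested collagen against shNC (x axis) in shHMGA2-1 (blue) and shHMGA2-2 (orange), with standard errors as bars. Filled points are DEGs, open points are not, and dotted lines mark a 2-fold change. COL17A1 lies at -1.19 in shHMGA2-1 and at 1.65 in shHMGA2-2, and COL6A3 reaches 6.96 in shHMGA2-2.

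The type VI chains were higher in shHMGA2-2, each by more than the spread between its libraries. COL6A2 (ENSG00000142173, chromosome 21, 46098112 to 46132848, plus strand), the alpha 2 chain, had 42 and 34 counts (shNC), 264 and 238 (shHMGA2-1) and 446 and 455 (shHMGA2-2). The lines did not overlap. With 2 libraries a line this is common. Of all tested genes, 64.5% in shHMGA2-1 and 79.8% in shHMGA2-2 had both libraries above or both below shNC. For the tested collagens the shares were 72.7% and 86.4%, and they apply to each such statement below. Against shNC, the log2 fold change was 2.64 (SE 0.17, adjusted p = 1.49e-11) in shHMGA2-1 and 3.48 (SE 0.16, adjusted p = 4.01e-15) in shHMGA2-2, and the direct difference between the knockdown lines was 0.84 (adjusted p = 2.93e-06), under the 2-fold limit. COL6A1 (ENSG00000142156), the alpha 1 chain encoded 93061 bases away on the same strand, had 233 and 181 counts (shNC), 352 and 348 (shHMGA2-1) and 952 and 1050 (shHMGA2-2). It was higher by 0.68 on the log2 scale in shHMGA2-1 (SE 0.12, adjusted p = 0.000135), short of 2-fold, and by 2.19 in shHMGA2-2 (SE 0.12, adjusted p = 3.8e-14).

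COL6A3 (ENSG00000163359, chromosome 2, 237324003 to 237414328, minus strand), the large alpha 3 chain, had 4 and 1 counts (shNC), 4 and 5 (shHMGA2-1) and 350 and 339 (shHMGA2-2). Only the shHMGA2-2 libraries were clearly above the 3-count floor. The ratio of summed, depth-scaled counts between shHMGA2-2 and shNC was 130, with a 95% counting interval of 55.6 to 403 that covers counting error only, and the fitted log2 fold change was 6.96 (SE 0.31, adjusted p = 1.32e-15). In shHMGA2-1 it was 0.74 (SE 0.75, adjusted p = 0.492), and the direct difference between the knockdown lines was 6.22 (adjusted p = 2.63e-15). COL6A5 and COL6A6, the alternative chains, had at most 1 count and no count.

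Per length, the balance of the type VI chains differed between the lines. The ratio of COL6A1 to COL6A2 in FPKM terms was 5.35 and 5.13 (shNC), 1.28 and 1.41 (shHMGA2-1) and 2.06 and 2.22 (shHMGA2-2). The ratio of COL6A1 to COL6A3 was 10.6 and 12.0 in shHMGA2-2, while in the other lines it rests on 1 to 5 counts of COL6A3. The stretches of 250 bases that end just before the RefSeq starts of COL6A2 (chr21:46097862-46098111, plus strand) and COL6A3 (chr2:237414165-237414414, minus strand) are shown because these chains had the highest type VI fold changes. They are from RefSeq on GRCh38.p14. Capitals mark the TATA box TATAAA, the CCAAT box, the GC box GGGCGG and the AP-1 type site TGANTCA on either strand, and no marked matches overlap.
COL6A2: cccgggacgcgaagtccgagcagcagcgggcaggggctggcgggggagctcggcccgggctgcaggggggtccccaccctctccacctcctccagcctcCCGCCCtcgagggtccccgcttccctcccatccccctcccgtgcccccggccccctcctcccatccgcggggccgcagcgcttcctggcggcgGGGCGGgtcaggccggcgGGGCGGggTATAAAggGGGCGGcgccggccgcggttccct
COL6A3: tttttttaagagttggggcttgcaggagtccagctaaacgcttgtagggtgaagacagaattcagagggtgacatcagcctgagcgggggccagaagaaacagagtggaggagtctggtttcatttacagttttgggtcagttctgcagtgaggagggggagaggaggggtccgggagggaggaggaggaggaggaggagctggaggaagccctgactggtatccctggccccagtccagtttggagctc
The COL6A2 stretch holds 1 TATAAA and 4 GGGCGG matches and is 20.4% A and T, and the COL6A3 stretch holds none of these motifs and is 44% A and T. Among 35116 RefSeq stretches of that length, 10.7% hold TATAAA, 32.0% hold CCAAT, 42.6% hold GGGCGG and 6.57% hold TGANTCA, and the median A and T content is 42%. These matches describe the letters of the windows and are not measured binding sites.

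**Figure D4:**
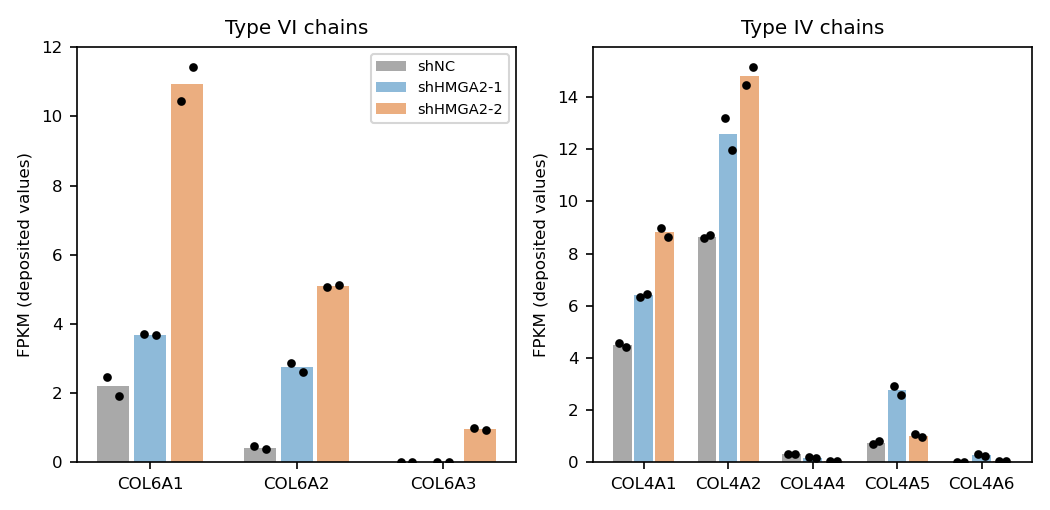
Deposited FPKM (y axes) of the type VI chains (left) and of 5 type IV chains (right) in shNC, shHMGA2-1 and shHMGA2-2. Bars are means of 2 libraries and black points are the libraries. COL6A3 is at 0.01 FPKM or below outside shHMGA2-2, where it is 0.95 and 0.99, and COL4A5 is highest in shHMGA2-1 at 2.6 and 2.94.

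Of the 5 tested basement membrane chains, 2 were higher DEGs in shHMGA2-1, where 8.49% of all genes were DEGs, and 1 was a lower DEG in shHMGA2-2, where 21.3% were. The type IV genes sit head to head in pairs, COL4A1 with COL4A2 on chromosome 13, COL4A3 with COL4A4 on chromosome 2 and COL4A5 with COL4A6 on the X chromosome. COL4A1 and COL4A2 encode the common chains of nearly all basement membranes, and 126 bases lie between their RefSeq starts. COL4A1 had 1135 and 1098 counts (shNC), 1594 and 1625 (shHMGA2-1) and 2169 and 2101 (shHMGA2-2). Its log2 differences from shNC were 0.45 (adjusted p = 6.24e-05) and 0.86 (adjusted p = 8.24e-10), both short of 2-fold. COL4A2 had 2816 and 2848 counts (shNC), 4364 and 3956 (shHMGA2-1) and 4584 and 4847 (shHMGA2-2), with log2 differences of 0.48 (adjusted p = 3.61e-06) and 0.65 (adjusted p = 6.47e-09). The libraries of each knockdown line lay above both shNC libraries for both genes. Of all tested genes, 64.5% in shHMGA2-1 and 79.8% in shHMGA2-2 were likewise apart from shNC, in either direction. The ratio of COL4A1 to COL4A2 per length was 0.530 and 0.507 (shNC), 0.480 and 0.540 (shHMGA2-1) and 0.622 and 0.570 (shHMGA2-2). COL4A1 and COL4A2 overlap in the table's coordinates. In the GENCODE annotation, however, COL4A1 shares 0% of its exonic bases with another gene. COL4A2 shares 0.49%, with its antisense genes. The 126 bases between the COL4A1 and COL4A2 starts (chr13:110307158-110307283 of GRCh38.p14, RefSeq, written on the strand of COL4A2) are shown because they separate the pair, and capitals are as above.
COL4A1 to COL4A2: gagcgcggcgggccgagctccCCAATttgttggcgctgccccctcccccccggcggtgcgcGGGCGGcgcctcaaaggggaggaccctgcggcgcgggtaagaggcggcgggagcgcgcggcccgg
It holds 1 CCAAT and 1 GGGCGG match and is 19.8% A and T.

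The X chromosome pair was highest in shHMGA2-1. COL4A5 (ENSG00000188153), a chain of kidney, lung and smooth muscle basement membranes, had 140 and 166 counts (shNC), 600 and 529 (shHMGA2-1) and 210 and 194 (shHMGA2-2). On the log2 scale the change was 1.80 (SE 0.13, adjusted p = 6.69e-11) in shHMGA2-1 and 0.32 (SE 0.14, adjusted p = 0.0563) in shHMGA2-2, and the direct difference was -1.48 (adjusted p = 3.83e-10). COL4A6 (ENSG00000197565), its partner in smooth muscle and epithelial membranes, had 2 and 2 counts (shNC), 52 and 39 (shHMGA2-1) and 9 and 6 (shHMGA2-2). The ratio between shHMGA2-1 and shNC was 21.5 (95% counting interval 8.13 to 80.8), with a fitted log2 fold change of 4.35 (adjusted p = 2.01e-06). In shHMGA2-2 the fitted value was 1.77 (SE 0.78, adjusted p = 0.0542). COL4A6 has 2 RefSeq starts, and 379 bases lie between the one nearer to COL4A5 and the COL4A5 start. The 250 bases before the COL4A5 start (chrX:108439588-108439837, plus strand, GRCh38.p14) are among those 379.
COL4A5: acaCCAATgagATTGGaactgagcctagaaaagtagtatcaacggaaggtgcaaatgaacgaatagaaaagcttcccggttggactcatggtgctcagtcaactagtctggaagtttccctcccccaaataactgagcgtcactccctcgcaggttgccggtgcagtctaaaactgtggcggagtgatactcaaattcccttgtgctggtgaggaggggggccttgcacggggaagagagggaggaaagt
This stretch holds 2 CCAAT matches, 1 on each strand, and is 48.8% A and T.

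COL4A4 (ENSG00000081052), a chain of the glomerular basement membrane, moved the other way. It had 64 and 68 counts (shNC), 39 and 36 (shHMGA2-1) and 10 and 7 (shHMGA2-2). The fitted log2 change was -0.89 (SE 0.28, adjusted p = 0.016) in shHMGA2-1, short of 2-fold, and -3.02 (SE 0.36, adjusted p = 1.16e-07) in shHMGA2-2. The direct difference was -2.13 (adjusted p = 7.09e-05). Its partner COL4A3 had 4 to 9 counts in every library and was not tested.

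Of the 6 tested fibrillar genes, 4 were DEGs in at least 1 knockdown line, against 23.8% of all genes tested. COL5A1 (ENSG00000130635), the type V chain that starts collagen fibrils, had 606 and 674 counts (shNC), 1384 and 1212 (shHMGA2-1) and 1825 and 2052 (shHMGA2-2). It was higher by 0.94 on the log2 scale (SE 0.09, adjusted p = 1.03e-08) in shHMGA2-1, just short of 2-fold, and by 1.52 (SE 0.09, adjusted p = 3.13e-13) in shHMGA2-2. COL5A2, the partner chain of the common type V molecule, had 50 and 50, 57 and 45, and 36 and 28 counts in the same order, with log2 differences of -0.05 (adjusted p = 0.917) and -0.72 (adjusted p = 0.0343). The ratio of COL5A1 to COL5A2 per length was 7.95 and 8.84 (shNC), 15.9 and 17.7 (shHMGA2-1) and 33.2 and 48.1 (shHMGA2-2). COL5A3 had no count.

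COL11A2 (ENSG00000204248), a chain of cartilage fibrils, had 13 and 13 counts (shNC), 26 and 33 (shHMGA2-1) and 331 and 356 (shHMGA2-2). The lines did not overlap, where 64.5% (shHMGA2-1) and 79.8% (shHMGA2-2) of all tested genes were apart from shNC. The log2 fold change was 4.63 (SE 0.22, adjusted p = 6.08e-15) in shHMGA2-2. In shHMGA2-1 it was 1.10 (SE 0.33, adjusted p = 0.0118), and that call was lost without either shNC library (adjusted p = 0.0658 and 0.0672) or without shHMGA2-1 replicate 2 (0.90 on the log2 scale, adjusted p = 0.0884). Limma did not call COL11A2 in shHMGA2-1 on log2(FPKM + 1) (0.17, adjusted p = 0.391) or on log2(FPKM + 0.1) (0.74, adjusted p = 0.120). COL11A1, the partner of COL11A2, had at most 2 counts. COL24A1 (ENSG00000171502), a fibrillar collagen of developing bone, had 2 and 4 counts (shNC), 2 and 13 (shHMGA2-1) and 87 and 97 (shHMGA2-2). The ratio between shHMGA2-2 and shNC was 29.0 (95% counting interval 13.1 to 80.1) and the fitted log2 fold change 4.80 (adjusted p = 1.25e-08). In shHMGA2-1 the 2 libraries differed, the fitted value was 1.21 (SE 0.78, adjusted p = 0.251), and it was 2.01 (adjusted p = 0.0309) without replicate 1 and -0.65 (adjusted p = 0.703) without replicate 2.

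COL1A1 (ENSG00000108821), the main chain of type I collagen, was highest in shHMGA2-1. It had 53 and 78 counts (shNC), 237 and 184 (shHMGA2-1) and 88 and 76 (shHMGA2-2), so shNC and shHMGA2-2 overlapped. The log2 fold change was 1.60 (SE 0.20, adjusted p = 5.65e-07) in shHMGA2-1 and 0.24 (SE 0.22, adjusted p = 0.358) in shHMGA2-2, with a direct difference of -1.36 (adjusted p = 1.72e-06). COL1A2, which encodes the second chain of type I collagen, had at most 3 counts in a library, and COL3A1 at most 5. COL27A1, a fibrillar collagen of cartilage, had 356 to 439 counts in the 6 libraries, with log2 differences of 0.10 and 0.07 from shNC (SE 0.11 each, adjusted p = 0.522 and 0.63).

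The transmembrane genes differed from one another. COL13A1 (ENSG00000197467) had 2624 and 2452 counts (shNC), 1532 and 1459 (shHMGA2-1) and 935 and 897 (shHMGA2-2). Its log2 change was -0.84 (adjusted p = 3.41e-09) in shHMGA2-1, short of 2-fold, and -1.55 (adjusted p = 1.78e-14) in shHMGA2-2, and the knockdown lines differed by -0.71 (adjusted p = 5.86e-08). COL17A1 (ENSG00000065618), the hemidesmosome collagen that ties epithelial cells to the basement membrane, had 64 and 77 counts (shNC), 27 and 38 (shHMGA2-1) and 246 and 221 (shHMGA2-2). Both knockdown lines were separate from shNC on opposite sides, where 64.5% (shHMGA2-1) and 79.8% (shHMGA2-2) of all tested genes were separate from shNC. Against shNC, the log2 fold change was -1.19 (SE 0.24, adjusted p = 0.000463) in shHMGA2-1 and 1.65 (SE 0.18, adjusted p = 3.32e-08) in shHMGA2-2, with a direct difference of 2.84 (adjusted p = 3.51e-11). Without shHMGA2-1 replicate 1 the first value was -0.95, short of 2-fold. It was not called by limma on log2(FPKM + 1) (-0.32, adjusted p = 0.170) or on log2(FPKM + 0.1) (-0.90, adjusted p = 0.0892). The shHMGA2-2 value was 0.92 with limma on log2(FPKM + 1), short of 2-fold. The 250 bases before the COL17A1 start (chr10:104085881-104086130, minus strand, GRCh38.p14, RefSeq) are shown because it was the one collagen called in opposite directions.
COL17A1: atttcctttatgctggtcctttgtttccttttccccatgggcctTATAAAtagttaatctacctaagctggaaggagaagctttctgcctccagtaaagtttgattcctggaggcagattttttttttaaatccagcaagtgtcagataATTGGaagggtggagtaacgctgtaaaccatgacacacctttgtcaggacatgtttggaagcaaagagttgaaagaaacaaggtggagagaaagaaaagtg
The stretch holds 1 TATAAA and 1 CCAAT match, on the reverse strand, is 59.6% A and T, and has a run of 15 bases of A or T.

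COL7A1 (ENSG00000114270), which forms the anchoring fibrils beneath hemidesmosomes, was, like COL17A1, lowest in shHMGA2-1 and highest in shHMGA2-2. It had 245 and 250 counts (shNC), 149 and 109 (shHMGA2-1) and 374 and 485 (shHMGA2-2). On the log2 scale the change was -1.02 (SE 0.16, adjusted p = 1.61e-05) in shHMGA2-1 and 0.71 (SE 0.14, adjusted p = 8.97e-05) in shHMGA2-2, and the direct difference was 1.73 (adjusted p = 6.67e-10). The shHMGA2-1 value sits at the 2-fold limit, and was -0.83 without its replicate 2. Limma did not call it on log2(FPKM + 1) (-0.47, adjusted p = 0.130) or on log2(FPKM + 0.1) (-0.88, adjusted p = 0.0872).

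COL18A1 (ENSG00000182871), the basement membrane proteoglycan whose C-terminal fragment is endostatin, had 1000 and 1021 counts (shNC), 2502 and 1944 (shHMGA2-1) and 2325 and 2737 (shHMGA2-2). It was higher in all 4 knockdown libraries. The fitted log2 change was 1.06 (SE 0.09, adjusted p = 2.86e-09) in shHMGA2-1 and 1.24 (SE 0.09, adjusted p = 3.62e-11) in shHMGA2-2, and the knockdown lines differed by 0.19 (adjusted p = 0.0884). Without shHMGA2-1 replicate 1 the first value was 0.88. The exons of COL18A1 share 16.4% of their bases with SLC19A1 on the opposite strand and the strand setting of the counting is not given. SLC19A1 had 19 to 49 counts, and the part of reads over the shared bases in the COL18A1 values was not tested. COL8A1 (ENSG00000144810) had 1577 and 1643 counts (shNC), 664 and 697 (shHMGA2-1) and 732 and 731 (shHMGA2-2). It was lower in both knockdown lines, at -1.32 (SE 0.09, adjusted p = 1.11e-11) and -1.22 (SE 0.08, adjusted p = 7.83e-12), and the lines differed by 0.10 (adjusted p = 0.355).

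Among the FACIT collagens, COL9A2 (ENSG00000049089), a chain on cartilage fibrils, had 121 and 116 counts (shNC), 153 and 131 (shHMGA2-1) and 47 and 60 (shHMGA2-2). The log2 fold change was 0.18 (adjusted p = 0.459) in shHMGA2-1 and -1.23 (SE 0.20, adjusted p = 1.11e-05) in shHMGA2-2, with a direct difference of -1.41 (adjusted p = 1.64e-06). Its partner COL9A3 had 0 to 8 counts and COL9A1 none. COL12A1, the most abundant collagen of shNC, had 4495 and 4658 counts (shNC), 4905 and 4997 (shHMGA2-1) and 3152 and 2911 (shHMGA2-2). Its log2 differences were 0.04 (adjusted p = 0.736) and -0.67 (adjusted p = 6.89e-09), under the 2-fold limit. COL16A1 had 4 to 14 counts, too few to separate the lines.

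Of the 22 untested collagens, 5 had no count in any library and 9 never passed the floor of 3 counts, which is 0.175 to 0.182 CPM. The other 8 reached more, and 4 of them had their highest counts in shHMGA2-2, of which COL10A1 and COL14A1 reached at most 6. COL20A1 had no count in either shNC library, 1 and 1 in shHMGA2-1, and 9 and 16 in shHMGA2-2, at least 3.93-fold higher than shNC when shNC is put at the floor of 3 counts per library. COL15A1, a multiplexin, had 2 and 1 counts (shNC), 2 and 0 (shHMGA2-1) and 11 and 8 (shHMGA2-2), a ratio of 5.99 to shNC (95% counting interval 1.76 to 31.6). These are low counts, and the intervals do not cover variation between cultures.

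The genes that make, process and bind collagen were read from lists of their own. All 24 synthesis genes were tested, and 1 was a DEG in shHMGA2-1 and 6 were in shHMGA2-2, 2 higher and 4 lower. These shares, 4.17% and 25%, stand beside 8.49% and 21.3% of all genes. The most abundant, CRTAP, P4HB and COLGALT1 (53.8, 53.1 and 39.4 FPKM over all libraries), had log2 differences of at most 0.30 from shNC. P4HA2, a prolyl 4-hydroxylase subunit, was higher in both lines, with 322 and 318 counts (shNC), 737 and 687 (shHMGA2-1) and 873 and 1092 (shHMGA2-2) (log2 changes 1.07 and 1.54, adjusted p = 2.68e-08 and 7.9e-12). FKBP10, a collagen chaperone, had 207 and 203 counts (shNC), 329 and 287 (shHMGA2-1) and 1 and 4 (shHMGA2-2), a log2 fold change of -6.37 there (SE 0.32, adjusted p = 1.5e-14). PLOD2, the lysyl hydroxylase of telopeptides, had 5501 and 5601 counts (shNC), 4342 and 5318 (shHMGA2-1) and 1668 and 1727 (shHMGA2-2). Its log2 change was -1.79 in shHMGA2-2 (adjusted p = 2.71e-15). P3H2 and P3H4 were also lower there, at -1.19 and -1.63. P4HA3 was higher in shHMGA2-2 at 1.90, but it entered the test only through that line. Its call is tied to the count filter, and the DEG counts above include it.

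Of 13 processing and cross-linking genes, 10 were tested, with 1 higher and 1 lower DEG in shHMGA2-1 and 2 higher and 2 lower in shHMGA2-2, where 8.49% and 21.3% of all genes were DEGs. LOXL2, the most abundant at 52.3 FPKM, had log2 differences of 0.24 and -0.01. LOXL1, a lysyl oxidase of elastic fibres, had 138 and 166 counts (shNC), 76 and 55 (shHMGA2-1) and 6 and 11 (shHMGA2-2), and changed by -1.29 (adjusted p = 3.55e-05) and -4.22 (adjusted p = 1.54e-11) on the log2 scale. LOX, the lysyl oxidase that cross-links fibrils (10.4 FPKM), was lower in shHMGA2-2 at -1.14 (adjusted p = 1.22e-09). BMP1, the procollagen C-proteinase, had 142 to 200 counts and was not a DEG. Its relative TLL2 had 1 to 5 counts in shNC and 15 to 29 in the knockdown libraries, or 2.81 and 2.71 higher on the log2 scale (adjusted p = 0.00162 and 0.00108). TLL2 entered the test only through the knockdown libraries, so its calls are tied to the count filter. The DEG counts above include it. The enhancer PCOLCE2 was higher in shHMGA2-2 at 1.10.

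Of 11 receptor genes, 8 were tested, with 1 higher and 3 lower DEGs in each line. Over all genes, 4.89% were higher and 3.59% lower in shHMGA2-1, and 11.7% and 9.65% in shHMGA2-2. ANTXR1, the anthrax toxin receptor family member with the highest level on this list (11.2 FPKM), had log2 differences of 0.28 (adjusted p = 0.00158) and -0.17 (adjusted p = 0.0321), both short of 2-fold. The collagen-binding integrin subunits ITGA1 and ITGA2 were lower in both lines, at -1.66 and -2.30 for ITGA1 and at -1.42 and -1.99 for ITGA2. ITGA2 had 2572 and 2620 counts (shNC), 984 and 1057 (shHMGA2-1) and 687 and 695 (shHMGA2-2). DDR1, a receptor tyrosine kinase for collagen, was higher, with 68 and 71 counts (shNC), 199 and 178 (shHMGA2-1) and 213 and 267 (shHMGA2-2) (log2 changes 1.36 and 1.70). ITGA10 was a DEG in shHMGA2-1 (-1.04), and ANTXR2, a receptor for type IV and type VI collagen, in shHMGA2-2 (-1.59). Of 7 collagen-degrading enzymes 3 were tested, and 1 was a DEG in each line, against 8.49% and 21.3% of all genes. MMP1, the interstitial collagenase, had 155 and 165 counts (shNC), 53 and 53 (shHMGA2-1) and 5 and 2 (shHMGA2-2). On the log2 scale it changed by -1.67 (adjusted p = 7.41e-07) and -5.54 (adjusted p = 7.2e-13). MMP14, the abundant membrane collagenase (38.4 FPKM), had log2 changes of -0.73 and -0.62 (adjusted p = 5.94e-09 and 2.67e-08), short of 2-fold, and CTSK did not pass the test.

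**Figure D5:**
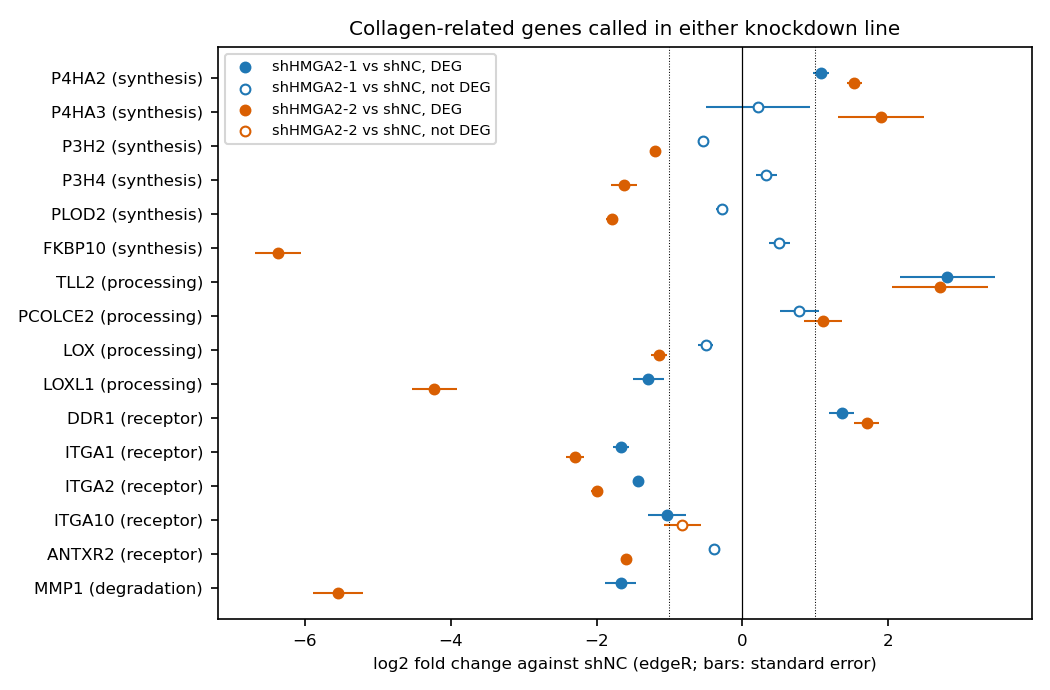
Log2 fold change against shNC (x axis) of the 16 genes of collagen synthesis, processing, binding and degradation that were DEGs in either knockdown line, with standard errors as bars. Filled points are DEGs, open points are not, blue is shHMGA2-1 and orange is shHMGA2-2. FKBP10 lies at 0.51 in shHMGA2-1 and at -6.37 in shHMGA2-2, and ITGA1, ITGA2, LOXL1 and MMP1 lie left of the 2-fold line in both.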

How the data were processed

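RNA-seq was read from 6 libraries. The authors deposited 1 table of raw counts per gene and of FPKM values. HISAT2 2.2.1, HTSeq 0.6.1 and the build GRCh38.p13 are named in the submitters' processing notes; the annotation version and the strand setting are not given in the sources used here. The deposited FPKM were recomputed from the deposited counts, the gene size and the library total within 0.01 for 100% of values.

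Counts were tested with edgeR 4.0.16 in R 4.3.3: filterByExpr (16110 of 61806 genes kept), TMM scaling (factors 0.958 to 1.05), the quasi-likelihood test in 1 model of 3 lines, and in a separate model with both knockdown lines as 1 group, with Benjamini-Hochberg adjustment over all tested genes. The 2-fold limit is the criterion of the study. Each standard error (SE) of an edgeR value was back-calculated. It is the absolute log2 fold change divided by the square root of the quasi-likelihood F statistic. CPM are TMM-normalised. Counting intervals of ratios are exact (Clopper-Pearson, 95%), and cover counting error only. A count of 3 in a library served as the floor. All collagens are accounted for. Those called in any comparison have every library's value, and of the other lists the genes called in both knockdown lines and the 3 with the highest FPKM are named. Other genes of those lists named here (those called in 1 line) were added after their values were seen. The members and lists were chosen with earlier results of these data known. Alternatives used DESeq2 1.42.0, limma 3.58.1, upper quartile scaling, no filter, a replicate block and leaving out each library. The edgeR steps were tested on simulated data. Promoter stretches came from RefSeq and matched 32 of the 44 collagens.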

Additional observations from a re-analysis of the deposited data

Results flagged for a closer look

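Between the knockdown lines, 11 collagens differed by at least 2-fold in the direct test of shHMGA2-2 against shHMGA2-1 (edgeR, adjusted p under 0.05), so their changes against shNC were unequal. In shHMGA2-2, 6 were higher, with log2 differences of 6.22 for COL6A3, 3.59 for COL24A1, 3.53 for COL11A2, 2.84 for COL17A1, 1.73 for COL7A1 and 1.51 for COL6A1. The other 5 were lower, with differences of -2.58 for COL4A6, -2.13 for COL4A4, -1.48 for COL4A5, -1.41 for COL9A2 and -1.36 for COL1A1. The 2 lines differ in hairpin, clone and remaining HMGA2 at once, and these cannot be told apart.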

How the results depend on the processing

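No called collagen change reversed direction under the alternatives run. The sign of 3 values that were not called changed: COL7A1 in the grouped comparison (0.09) was -0.050 with limma on log2(FPKM + 0.1) and -0.31 to 0.36 when 1 library was left out, below 0 without either shHMGA2-2 library, COL1A1 in shHMGA2-2 (0.24) was -0.016 to 0.55, lowest without shNC replicate 1, and COL24A1 in shHMGA2-1 (1.21) was -0.65 to 2.01, lowest without shHMGA2-1 replicate 2. Of the other single-gene values recomputed, 704 kept their side of the threshold, 12 passed it newly and 47 lost it. The count of collagen DEGs for shHMGA2-1, shHMGA2-2, the direct difference and all knockdown libraries together (9, 12, 11 and 4) was 4, 6, 3 and 2 with limma on log2(FPKM + 1), which shrinks the changes of low genes. It was 15 for shHMGA2-1 and 17 for the direct difference with no minimum fold. For all knockdown libraries together it was 10 with DESeq2 and 1 with the replicate block; over all genes that comparison gave 498, 1028 with DESeq2 and 138 with the block. Same-numbered replicates deviated together in no pair of lines (r from -0.100 to 0.00213), so no shared shift was seen. Counting noise enters these values, and they cannot show whether same-numbered libraries were processed together. The replicate block left 9, 12 and 11 in the other comparisons. Leaving out 1 library gave 8 to 9, 12 to 12, 11 to 11 and 0 to 4; the 0 came without either shNC library, where the lone shNC sample is assumed to vary like the other groups. Among these runs, COL5A1 in the grouped comparison was kept only without shHMGA2-1 replicate 2, and it was also lost with the replicate block and with limma, but not with upper quartile scaling, DESeq2 or no count filter. Upper quartile scaling moved the median of all genes in shHMGA2-2 from 0.03 to 0.14. Under it COL4A6 in shHMGA2-2 passed (1.88, adjusted p = 0.0398). With no count filter COL20A1 was called in shHMGA2-2. Genes under about 3 counts a library are not resolved at this depth.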

Other observations

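Position was examined for the collagens that lie together on chromosome 21. COL18A1, COL6A1 and COL6A2 lie on the same strand with 468049 bases between COL18A1 and COL6A1. Of the 23 other tested genes within 500 kb of them, 1 was a DEG in shHMGA2-1 (4.35%) and 7 were in shHMGA2-2 (3 higher and 4 lower, 30.4%). Over all genes these shares were 8.49% and 21.3%, and the median log2 differences of the 23 genes were -0.07 and 0.01. The 1 in shHMGA2-1 was PCBP3, with 0 and 1 counts (shNC), 16 and 10 (shHMGA2-1) and 25 and 25 (shHMGA2-2). PCBP3 was higher in both lines, by 4.32 and 5.26 on the log2 scale. It entered the test only through the knockdown libraries, so its calls are tied to the count filter. In shHMGA2-2, the other collagen loci had 2 lower DEGs among 7 tested neighbours (COL6A3), 7 higher among 35 (COL11A2), 1 higher and 4 lower among 12 (COL13A1), 1 higher and 2 lower among 11 (COL17A1), and 1 higher and 1 lower among 5 (COL4A5 and COL4A6). By edgeR none was a DEG among 8 around COL4A1 and COL4A2, 2 around COL5A1 and 3 around COL8A1, of which 2, 1 and 2 had an unadjusted p under 0.05. In shHMGA2-1, 5 of the 35 neighbours of COL11A2 were DEGs (14.3%, 4 higher and 1 lower). The 4 higher ones included HLA-DPB1 (log2 5.47), HLA-DPA1 (4.21) and HLA-DMB (2.97). These genes were higher still in shHMGA2-2, where HLA-DPB1 reached 11.38 against shNC. The direct log2 differences of shHMGA2-2 from shHMGA2-1 were 5.92 (HLA-DPB1), 5.79 (HLA-DPA1) and 3.03 (HLA-DMB). HLA-DOA (9.27) and HLA-DMA (3.80) were higher DEGs against shNC in shHMGA2-2 only. The 7 higher DEGs there were 20% of the 35 neighbours, against 11.7% of all genes. Within shHMGA2-1, 1 was a DEG around each of COL4A1 and COL4A2, COL4A5 and COL4A6, COL8A1, COL13A1 and COL17A1. By edgeR none was a DEG there around COL6A3 or COL5A1, where 2 and 2 had an unadjusted p under 0.05.

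The RefSeq stretches before the starts of the collagens ranged widely in base composition. One of the 2 stretches of COL18A1 was 11.6% A and T with 9 GGGCGG matches, against a median of 42% A and T over all stretches. The highest A and T share among the collagens was 67.6%, at 1 of the 3 starts of COL10A1, a gene with 2 to 5 counts in every library.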
